A study of Mus musculus with 6 samples.

Results

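The PGC-1 coactivators, the PPAR and ERR nuclear receptors and the muscle regulator Perm1 were examined in ventricular tissue of mice whose hearts carry an activated Akt. The group holds 10 genes of the 18193 measured: the coactivators Ppargc1a, Ppargc1b and Pprc1, the receptors Ppara, Ppard and Pparg, the receptors Esrra, Esrrb and Esrrg, and Perm1. They were taken by name, with earlier results of these data known. Each is represented by the probe set with the highest mean over all arrays among those annotated to that gene alone. All 10 were found, through 23 probe sets. The caAkt mice express a constitutively active form of the kinase Akt in the heart, and wild-type mice without it served as controls. Both groups were 8 weeks old, with 3 arrays each. The promoter of the transgene, the strain and the sex were not given in the labels, nor was it said whether each array held the RNA of 1 heart or of several. The p-values therefore cover only the variation among these 6 samples, part or all of which may be technical.

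PGC-1 proteins do not bind DNA themselves. They are recruited by transcription factors, among them PPARs and ERRs, and raise the transcription of genes of fatty acid oxidation and oxidative phosphorylation, on which the working heart depends for ATP. PPARs bind DNA as partners of retinoid X receptors and respond to fatty acids, whereas ERRs are orphan receptors whose activity follows the amount of coactivator. Perm1 is induced by PGC-1 and ERRs in striated muscle and acts on the same genes. The question put to the arrays was how the RNA of each regulator stood when Akt was active in the heart.

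The values are log2 expression after RMA, so a difference of 1 is a doubling of the signal, and the values of different genes cannot be ranked against each other because each probe set has its own sensitivity. The array medians lay between 6.770 and 6.798, and the correlation across probe sets (not independent of each other) was 0.995 to 0.997 within a genotype and 0.983 to 0.985 between genotypes. Akt1, read as a check of the labels, stood at 15.16, 15.10 and 15.08 on the caAkt arrays, against 9.79, 9.79 and 10.18 on the wild-type arrays at its brightest probe set, near the top of the scale in caAkt, which matches the labels. As a mark for weak signals, the 95th percentile of the mean values of 44 olfactory receptor probe sets, genes of the nose, was 6.87. All 10 regulators lay above it, as did 19 of their 23 probe sets. Heart muscle markers were as the labelled tissue requires, with 7 of 8 above 14 (Myh6, Tnnt2, Tnni3, Actc1, Pln, Myl2 and Actn2).

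Of the 10 genes, 4 fell in caAkt hearts and 0 rose at an adjusted p under 0.05 (limma, Benjamini-Hochberg over all genes), beside 12.4% of all genes that fell (2254) and 16.1% that rose (2929). That balance over all genes turned with renewed quantile normalization, to 2667 that rose and 2714 that fell. The change was uneven: Ppargc1a was 3.46-fold lower and Ppara 1.83-fold lower, whereas Esrra and Perm1 were each 1.17-fold lower. All 3 caAkt values lay under all 3 wild-type values for these 4 genes, and above them for Pparg (over all genes 21.1% were separated downwards and 21.4% upwards). The groups overlapped for the other 5. The median log2 fold change of the 10 was -0.19, against -0.036 over all genes. The count that fell was 2 without wild-type replicate 1, wild-type replicate 2, caAkt replicate 2 or caAkt replicate 3, and 3 without either of the other arrays. In bulk tissue such as this, fewer cells of a type and less RNA per cell cannot be told apart.

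**Figure D1:**
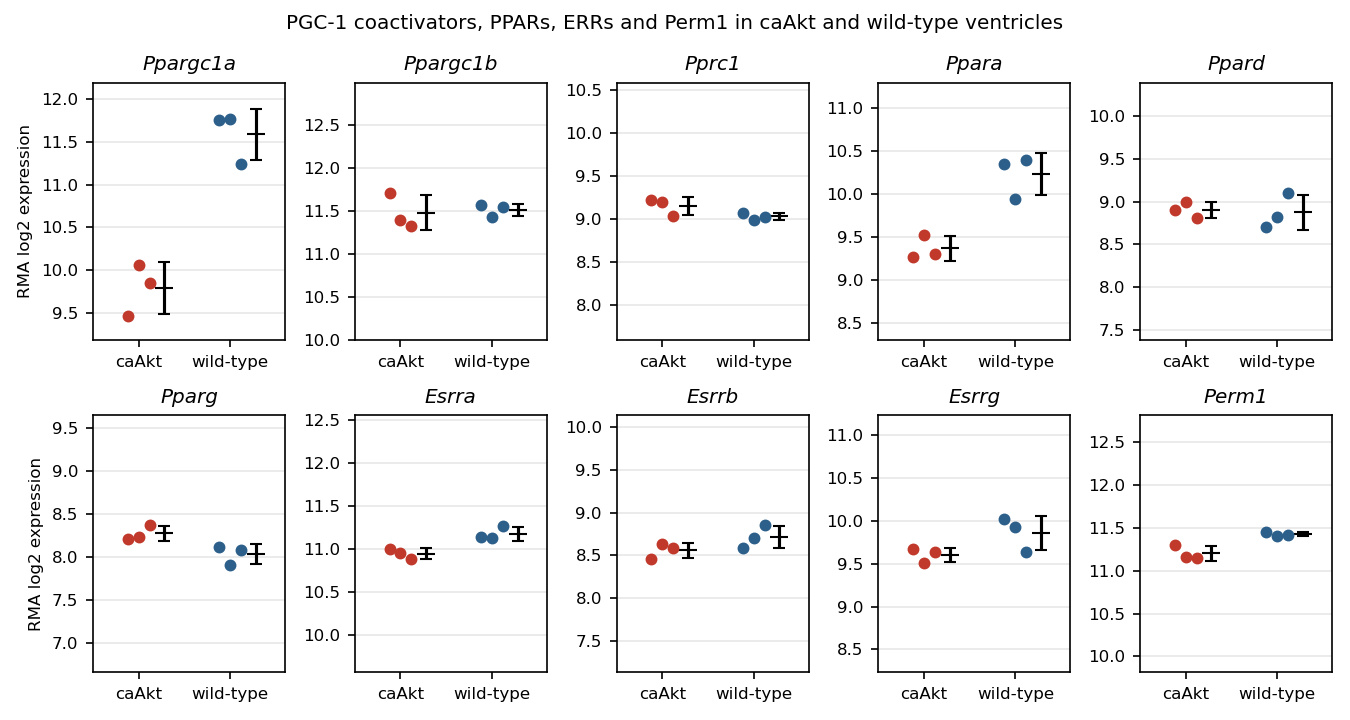
RMA log2 expression (vertical axis, 3 log2 units high in each panel, so slopes can be compared) of the 10 genes on each caAkt array (red) and wild-type array (blue). Points are arrays and black bars are the mean and SD of 3 arrays. Ppargc1a and Ppara are separated by gaps of 1.19 and 0.42 between the nearest caAkt and wild-type arrays, while most other panels are nearly level.

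A promoter window of each of the 4 genes that fell is shown, as the regulatory stretch nearest to its annotated start. Other starts of these genes, and which start the heart uses, were not analysed here. Each runs from 250 bases before to 50 bases after the annotated start, from RefSeq on GRCm38.p6, 5′ to 3′ on the strand of the gene. Capitals mark matches, on either strand, to the core of the cAMP response element (TGACG), the nuclear receptor element that ERRs also bind (AAGGTCA) and the element of the factor NRF1 (GCATGCGC).
Ppargc1a (chr5:51567676-51567975, minus strand): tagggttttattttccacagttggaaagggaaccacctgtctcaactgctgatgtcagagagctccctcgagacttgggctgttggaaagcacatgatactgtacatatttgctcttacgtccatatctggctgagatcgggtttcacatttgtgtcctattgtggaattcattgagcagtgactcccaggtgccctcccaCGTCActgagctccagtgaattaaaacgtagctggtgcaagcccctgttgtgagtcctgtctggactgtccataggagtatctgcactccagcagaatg
Ppara (chr15:85735526-85735825, plus strand): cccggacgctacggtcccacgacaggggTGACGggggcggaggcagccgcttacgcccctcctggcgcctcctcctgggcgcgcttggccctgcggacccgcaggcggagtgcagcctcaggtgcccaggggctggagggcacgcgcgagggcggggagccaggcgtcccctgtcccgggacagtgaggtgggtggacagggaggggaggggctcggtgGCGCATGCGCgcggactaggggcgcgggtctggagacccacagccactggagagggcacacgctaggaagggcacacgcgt
Esrra (chr19:6921759-6922058, minus strand): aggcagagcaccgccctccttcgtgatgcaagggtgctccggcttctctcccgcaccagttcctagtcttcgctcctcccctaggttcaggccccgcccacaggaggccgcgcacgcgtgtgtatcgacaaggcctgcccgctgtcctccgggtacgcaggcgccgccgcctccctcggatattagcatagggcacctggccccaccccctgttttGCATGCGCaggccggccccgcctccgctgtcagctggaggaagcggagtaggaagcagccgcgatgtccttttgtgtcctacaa
Perm1 (chr4:156215677-156215976, plus strand): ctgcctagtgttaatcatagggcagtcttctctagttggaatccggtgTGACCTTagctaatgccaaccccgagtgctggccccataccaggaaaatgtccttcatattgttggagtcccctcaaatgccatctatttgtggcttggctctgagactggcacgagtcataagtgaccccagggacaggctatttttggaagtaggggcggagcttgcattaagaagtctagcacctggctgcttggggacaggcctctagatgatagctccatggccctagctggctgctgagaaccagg

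In the Ppargc1a window 1 core of the cAMP response element lay at -49 from the start on the opposite strand. The Ppara window held 1 such core at -222 and 2 overlapping NRF1 matches at -31 and -29, 1 on each strand. Esrra had 1 NRF1 match at -34, and Perm1 had 1 nuclear receptor element at -202. Over all 32851 promoter windows of the table, these letters were found in 20.8% (TGACG), 2.71% (GCATGCGC) and 4.72% (AAGGTCA). The complete palindrome TGACGTCA (1.79% of all windows, and containing the core), the FoxO element TGTTTAC (3.65%), the ETS element CCGGAAG (8.86%) and the E-box CACGTG (7.15%) were not among the letters of these 4 windows. Of the genes that did not pass the test, Ppard held 1 core of the cAMP response element and Esrrb 2 in 1 of its 2 windows, while the windows of Pprc1, Pparg and Esrrg held 0 of the 7 motifs. Ppargc1b was not analysed here in this respect. A match of letters is a description and not evidence of binding.

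Among the coactivators, Ppargc1a (PGC-1α), which is induced by cold, fasting and exercise and is abundant in heart and brown fat, had log2 values of 9.47, 10.06 and 9.85 on the caAkt arrays, against 11.75, 11.76 and 11.24 on the wild-type arrays. The groups were far apart, and the nearest pair of arrays, caAkt replicate 2 and wild-type replicate 3, differed by 1.19. The log2 fold change was -1.79 (95% interval -2.18 to -1.40, adjusted p = 7.78e-05), and it held without any single array (-1.96 to -1.63, adjusted p up to 0.00114). Ppargc1a had 5 probe sets, and each of them fell, with log2 fold changes of -1.90 to -1.57 (adjusted p up to 0.000233 in a fit of all probe sets, in which 8.76% fell). At each of the 5 the order was alike at the ends: caAkt replicate 1 was the lowest and caAkt replicate 2 the highest caAkt array, and wild-type replicate 3 was the lowest wild-type array. These probe sets are not independent, since 1434099_at and 1434100_x_at share the same source sequence in the annotation.

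Ppargc1b (PGC-1β), a relative that coactivates many of the same factors, stood at 11.71, 11.39 and 11.33 in caAkt hearts, against 11.56, 11.43 and 11.54 in wild-type hearts. The caAkt arrays spanned the wild-type ones, and the log2 fold change of -0.034 did not pass the test (adjusted p = 0.834), with an interval from -0.27 to 0.20. Pprc1 (PRC), the third relative, which responds to growth signals in cultured cells, had values of 9.22, 9.19 and 9.03 in caAkt hearts, against 9.07, 8.99 and 9.03 in wild-type hearts. Its log2 fold change was 0.12 (interval -0.05 to 0.29, adjusted p = 0.270). Each of these relatives was measured by 1 probe set.

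Whether the relatives changed unequally was tested on the difference between a pair of genes within each array, for 6 pairs. Ppargc1a minus Ppargc1b averaged -1.68 ± 0.49 in caAkt hearts and 0.072 ± 0.33 in wild-type hearts (SD, n = 3 each; exact permutation p = 0.1, adjusted p = 0.15), a difference of change of -1.76 on the log2 scale. Against Pprc1 the difference of change was -1.91 (exact permutation p = 0.1, adjusted p = 0.15). The caAkt and wild-type arrays did not overlap in either pair. With 3 against 3 arrays, 0.1 is the smallest p the exact two-sided test can give, so these differences could not pass a threshold of 0.05.

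Among the PPARs, Ppara, the receptor that drives fatty acid oxidation in heart and liver, had log2 values of 9.27, 9.53 and 9.30 on the caAkt arrays, against 10.35, 9.95 and 10.40 on the wild-type arrays. Wild-type replicate 2 was the lowest of its group and still lay above every caAkt array. The log2 fold change was -0.87 (interval -1.15 to -0.58, adjusted p = 0.000852), and it was -1.01 to -0.78 without single arrays (adjusted p up to 0.00766). The other 2 probe sets fell by 1.06 and 0.94 on the log2 scale (adjusted p = 0.000147 and 0.000308 among all probe sets), with gaps between the groups of 0.82 and 0.71.

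Ppard (PPARδ), which is expressed widely and also acts on fatty acid oxidation in heart muscle, had 8.90, 8.99 and 8.81 in caAkt hearts, against 8.70, 8.82 and 9.10 in wild-type hearts. The wild-type arrays lay on both sides of the caAkt arrays, and the log2 fold change of 0.027 (interval -0.21 to 0.27, adjusted p = 0.873) turned to -0.12 with the mean of its probe sets. A second probe set of Ppard, at or under the olfactory level in both groups (means 6.37 in caAkt and 6.62 in wild-type), gave -0.26 (adjusted p = 0.0779 among all probe sets). Ppara minus Ppard averaged 0.46 ± 0.09 in caAkt hearts and 1.36 ± 0.27 in wild-type hearts (SD, n = 3 each; exact permutation p = 0.1, adjusted p = 0.15).

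Pparg (PPARγ), the receptor of fat cell differentiation, which macrophages and endothelial cells also express, was at 8.21, 8.24 and 8.37 on the caAkt arrays, against 8.12, 7.90 and 8.08 on the wild-type arrays. All caAkt values were higher, by a gap of 0.09, and the log2 fold change of 0.24 (interval 0.05 to 0.43) missed the threshold (adjusted p = 0.0603). It was called at 0.31 with array weights (adjusted p = 0.0172) and, at adjusted p of 0.0429 to 0.0485, in 3 other fits. Markers of other cells moved beside it, in a contrast in which 12.4% of all genes fell and 16.1% rose. Of 8 macrophage markers 7 rose and Cd163 fell, with a mean level of the list of 9.69 to 9.94 on the caAkt arrays and 8.68 to 8.90 on the wild-type arrays. Cd163, and Itgam among those that rose, had a mean over the 6 arrays under the olfactory level. Of 4 measured adipocyte markers 3 fell (Adipoq, Cidec and Retn) and 0 rose, and Adipoq, Cidec and Lep had a mean over the 6 arrays under the olfactory level, with the list at 5.33 to 5.49 on the caAkt arrays and 5.87 to 6.17 on the wild-type arrays. Their part in the value of Pparg was not tested. Ppara minus Pparg averaged 1.09 ± 0.18 in caAkt hearts and 2.20 ± 0.14 in wild-type hearts (SD, n = 3 each; exact permutation p = 0.1, adjusted p = 0.15).

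Among the estrogen-related receptors, Esrra (ERRα), a main partner of PGC-1α on genes of the respiratory chain, had log2 values of 11.00, 10.95 and 10.89 in caAkt hearts, against 11.13, 11.12 and 11.27 in wild-type hearts. The groups did not overlap, with a gap of 0.12. The log2 fold change was -0.23 (interval -0.39 to -0.06, adjusted p = 0.0436), and the call was lost without any 1 of the 6 arrays (adjusted p 0.0591 to 0.121). A dimmer probe set of Esrra gave -0.13, with overlapping groups (adjusted p = 0.350 among all probe sets), and in that fit the brighter one missed the threshold too (adjusted p = 0.0653).

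Esrrg (ERRγ), the relative that marks oxidative muscle and the heart after birth, had probe sets that differed, with log2 fold changes of -1.13 to -0.19. Its brightest, 1455267_at, had 9.67, 9.51 and 9.63 on the caAkt arrays, against 10.02, 9.93 and 9.64 on the wild-type arrays. Only wild-type replicate 3 reached down to the caAkt values, and the log2 fold change of -0.26 (interval -0.49 to -0.02) was not called (adjusted p = 0.0970). With that array dropped it was -0.37 (adjusted p = 0.0123). A dimmer one, 1457896_at, had 6.51, 6.64 and 6.41 on the caAkt arrays, under the olfactory level of 6.87, and 7.81, 7.46 and 7.68 on the wild-type arrays, above it. The groups were well apart there, although a fall to under that level can be understated, and the log2 fold change was -1.13 (interval -1.37 to -0.89, adjusted p = 0.000117 among all probe sets). The third, 1421747_at, was at 5.84 to 6.27 on caAkt and 6.13 to 6.33 on wild-type arrays and gave -0.19 (adjusted p = 0.292). With the mean of the 3, Esrrg was called at -0.52 (adjusted p = 0.000300), a value that includes this dim probe set and the one at -1.13. Which transcript each probe set detects was not analysed here.

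Esrrb (ERRβ), which is best known from stem cells and the placenta, had values of 8.46, 8.63 and 8.59 in caAkt hearts, against 8.59, 8.71 and 8.85 in wild-type hearts. The groups overlapped slightly, and the log2 fold change of -0.15 was not called (interval -0.35 to 0.04, adjusted p = 0.219). Its other probe sets gave -0.14 and 0.076 (adjusted p = 0.296 and 0.822 among all probe sets). Within arrays, the changes of Esrrg and Esrrb at their brightest probe sets were not separated from that of Esrra, which does not cover the probe set of Esrrg that fell by 1.13. The difference of change was -0.028 ± 0.17 for Esrrg minus Esrra and 0.074 ± 0.089 for Esrrb minus Esrra (SE; n = 3 each; exact permutation p = 0.9 and 0.5, adjusted p = 0.9 and 0.6).

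Perm1, the muscle regulator induced by PGC-1 and ERRs, had 11.30, 11.16 and 11.15 on the caAkt arrays, against 11.45, 11.41 and 11.42 on the wild-type arrays. The SD was 0.09 in caAkt hearts and 0.02 in wild-type hearts, and all caAkt values lay under them by at least 0.11. The log2 fold change of -0.22 (interval -0.38 to -0.06) was called (adjusted p = 0.0428), but of the 6 fits that leave out 1 array it passed in 1, the fit lacking caAkt replicate 1 (adjusted p up to 0.123 in the others). Its second probe set, under the olfactory level, gave -0.079 (adjusted p = 0.543 among all probe sets).

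**Figure D2:**
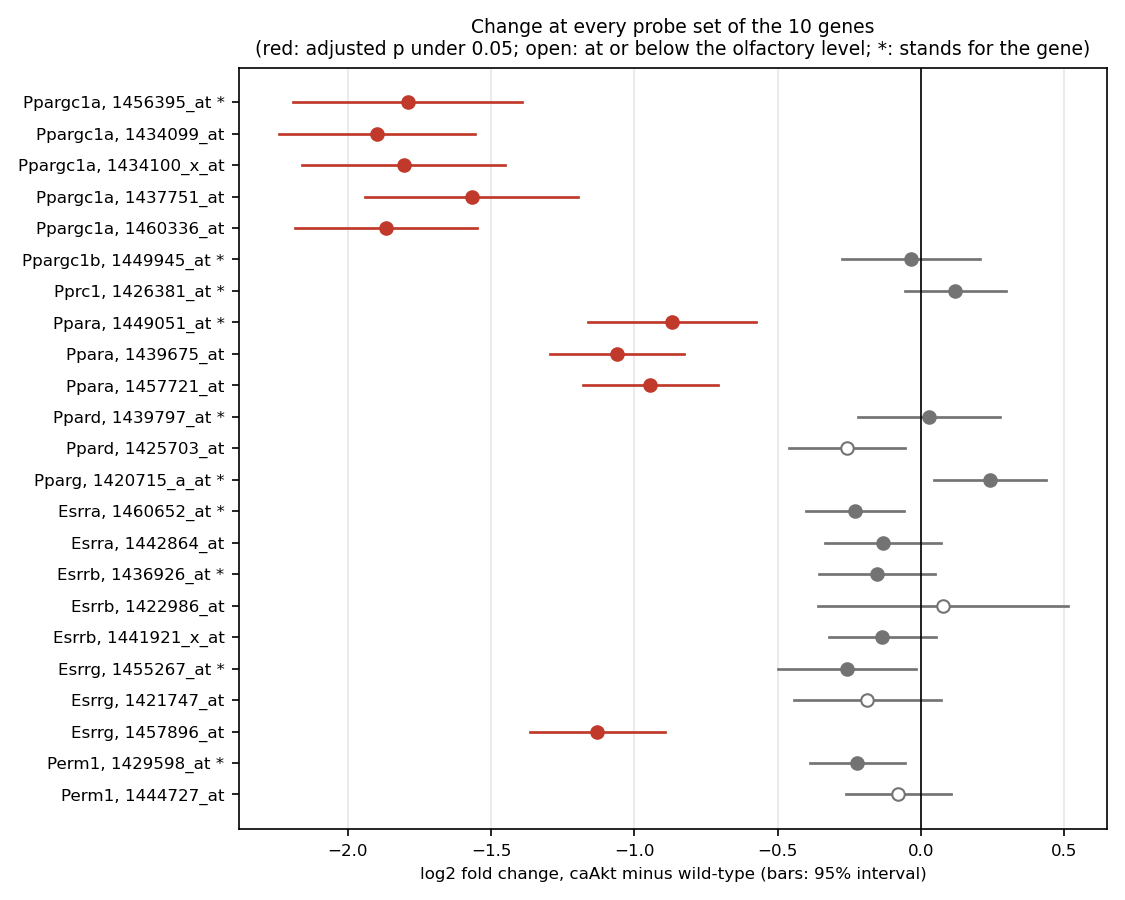
Log2 fold change of caAkt minus wild-type (horizontal axis) at each of the 23 probe sets of the 10 genes (rows), with 95% intervals from the fit of all probe sets. Red points passed an adjusted p of 0.05, open points have a mean at or under the olfactory level, and an asterisk marks the probe set that stands for the gene. The 5 probe sets of Ppargc1a and the 3 of Ppara are red, together with 1 of the 3 of Esrrg. So 9 of the 23 fell, beside 8.76% of all probe sets, and 0 rose.

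**Figure D3:**
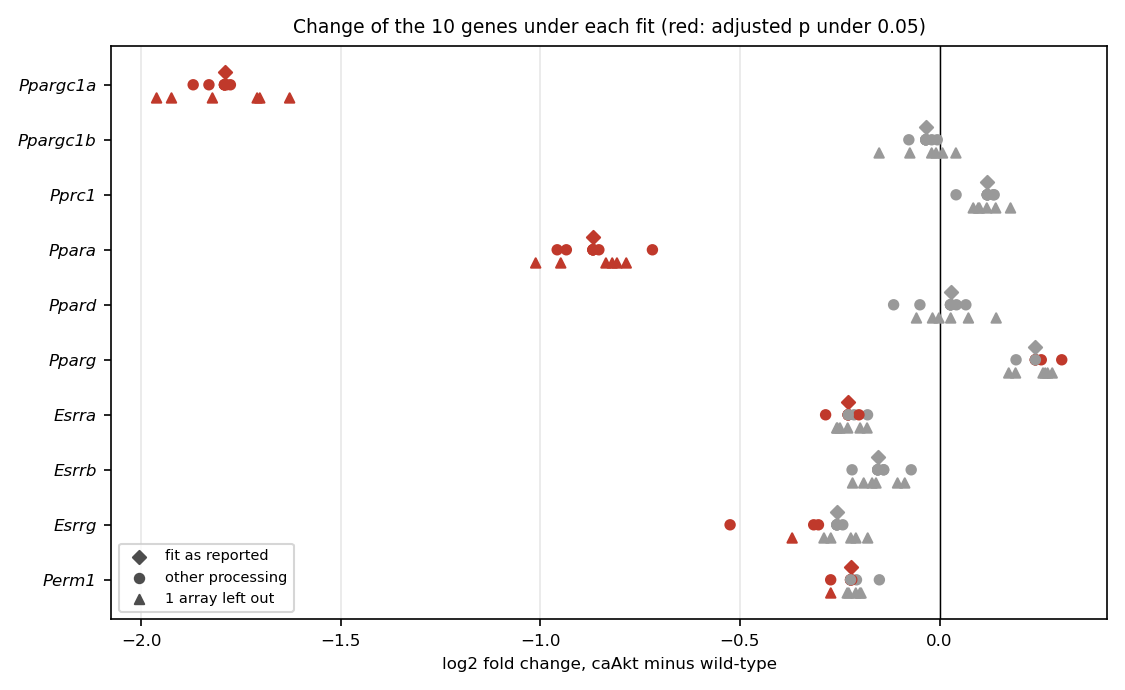
Log2 fold change of caAkt minus wild-type (horizontal axis) for each of the 10 genes (rows) in the fit as reported (diamonds), under other processing (circles) and with 1 array left out (triangles). Red marks an adjusted p under 0.05. Ppargc1a and Ppara are red in every fit shown, whereas Esrra, Perm1, Esrrg and Pparg are red in some fits and grey in others.

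The genes around these regulators were described with 6 lists: receptor partners and coregulators, factors upstream of Ppargc1a, PPAR targets, ERR and PGC-1 targets, factors of mitochondrial DNA, and antioxidant targets of PGC-1. These lists too were chosen with earlier results of these data known, so their counts are a description. Among the partners and coregulators, 8 of 20 measured genes fell and 1 rose (12.4% and 16.1% of all genes), with a median log2 fold change of -0.13. Lpin1 (lipin 1), which encodes a lipid phosphatase that also coactivates PPARα with PGC-1α, fell by 0.86 ± 0.08 on the log2 scale (SE, adjusted p = 7.33e-05). The retinoid X receptor gene Rxrg, whose product pairs with PPARs, fell by 0.84 ± 0.09 (adjusted p = 0.000146). The deacetylase gene Sirt1, whose product activates PGC-1α, fell by 0.58 ± 0.11 (adjusted p = 0.00399). Smarcd1, a chromatin remodelling subunit that binds PGC-1α, fell by 0.41 ± 0.10 (adjusted p = 0.0124) was not called without caAkt replicate 1 (adjusted p = 0.0529) and was -0.27 with the mean of its probe sets. The 1 gene that rose was Tbl1x, a subunit of corepressor complexes, by 0.58 ± 0.08 on the log2 scale (adjusted p = 0.000847). The count that rose was 2 without caAkt replicate 1. The abundant members Smarcd3 (0.13), Med1 (-0.19) and Tbl1xr1 (0.18) were not called. Med1 passed once wild-type replicate 3 was dropped (-0.29, adjusted p = 0.04997), and Tbl1xr1 was called at 0.57 when only plain probe sets were used, those whose name carries no mark for several transcripts or cross-hybridization (adjusted p = 0.000984). With the mean of its probe sets Tbl1xr1 was called at 0.30 (adjusted p = 0.0105).

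Of 24 genes upstream of Ppargc1a, 8 fell (33.3%, beside 12.4% of all genes) and 1 rose (4.17%, beside 16.1%), with a median of -0.17. Hdac9, a class II deacetylase that restrains MEF2 factors, fell by 0.80 ± 0.11 on the log2 scale (adjusted p = 0.000702), and Mef2a, of the MEF2 family that binds the Ppargc1a promoter, by 0.60 ± 0.08 (adjusted p = 0.000489). The stress kinase gene Mapk14 (p38α) fell by 0.41 ± 0.08 (adjusted p = 0.00512), or by 0.20 with the mean of its probe sets (log2 fold change -0.20, adjusted p = 0.0482). Foxo3, a factor that Akt keeps out of the nucleus, fell by 0.42 ± 0.11 (adjusted p = 0.0176), and of the 6 fits that leave out an array it passed in 2, those lacking wild-type replicate 3 or caAkt replicate 2. Gsk3b, whose product marks PGC-1α for degradation, was at 10.47, 10.50 and 10.47 on the caAkt arrays, against 9.63, 9.14 and 10.34 on the wild-type arrays. Its log2 fold change of 0.77 (adjusted p = 0.0393) came with a scattered wild-type group, and of those 6 fits it passed in 1, the fit lacking wild-type replicate 3 (adjusted p up to 0.115). It was 0.23 with the mean of its probe sets (adjusted p = 0.0404) and 0.49 without wild-type replicate 2. The count that fell was 5 without any single array other than wild-type replicate 3, where it was 6, and the count that rose was 0 in the same fits and 1 in that one. Prkaa2 (-0.13), Mef2d (-0.19) and Ppp3cb (0.089), the members not called that had the highest signal, had adjusted p of 0.477, 0.0563 and 0.521. Mef2d was called in 3 other fits (adjusted p 0.0195 to 0.0380).

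Of 31 measured PPAR targets, 19 fell (61.3%, beside 12.4% of all genes) and 3 rose (9.68%, beside 16.1%). The median log2 fold change was -0.42 against -0.036 over all genes. The acyl-CoA thioesterase gene Acot1 had 5.66, 6.25 and 5.80 on the caAkt arrays, against 8.51, 7.54 and 7.43 on the wild-type arrays, a fall without overlap (log2 fold change -1.92, SE 0.26, adjusted p = 0.000615). The caAkt values lie under the olfactory level, where a fall can be understated, and probes of Acot1 can share signal with its near-identical relatives. Genes of β-oxidation followed, with Eci1 at -1.11 ± 0.08, Ech1 at -0.96 ± 0.08 and Decr1 at -0.89 ± 0.09 (SE, adjusted p up to 7.71e-05). The 3 that rose were Angptl4, Cpt1a and Plin2. Angptl4, an inhibitor of lipoprotein lipase, was at 8.78, 9.53 and 9.69 on the caAkt arrays, against 6.95, 7.02 and 6.82 on the wild-type arrays (log2 fold change 2.41, adjusted p = 3.43e-05). It was 1.25 with the mean of its probe sets, and 0.10 and not called at its plain probe set (adjusted p = 0.451). The wild-type values of Angptl4 lie close to the olfactory level of 6.87, where the size of a rise is uncertain. Cpt1a, the carnitine transferase form of liver, rose by 0.56 ± 0.09 and the lipid droplet coat gene Plin2 by 0.37 ± 0.07. The abundant fatty acid carriers Fabp3 (-0.092) and Cd36 (-0.21) and the dehydrogenase Acadl (-0.23) were not called (adjusted p = 0.413, 0.189 and 0.0667). Acadl was called in 4 other fits (adjusted p 0.0221 to 0.0475) and Cd36 without wild-type replicate 3 (-0.33, adjusted p = 0.0378).

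Of 34 measured ERR and PGC-1 targets, 20 fell (58.8%, beside 12.4% of all genes) and 0 rose (beside 16.1%). The median was -0.28. The largest falls were those of Slc2a4, the insulin-responsive glucose transporter (-0.71 ± 0.07, SE), Cox8b, a muscle subunit of complex IV (-0.70 ± 0.08), and Dld, a dehydrogenase subunit shared by several mitochondrial complexes (-0.67 ± 0.12, or -0.45 with the mean of its probe sets). Mfn1, a fusion protein of the outer mitochondrial membrane (-0.66 ± 0.06), and Ndufs1 of complex I (-0.65 ± 0.07) completed the 5 (adjusted p up to 0.00306). Mb, the oxygen store myoglobin (-0.0073), Slc25a4, the ADP/ATP carrier of muscle (-0.11), and Atp5b of ATP synthase (-0.047) were not called. They stood at 14.85 or more in both groups, near the top of the scale at 15.45, where a fall can be understated, and 14 of the 34 genes had a mean above 14. Slc25a4 was called at -0.55 with plain probe sets (adjusted p = 0.000522) and at -0.25 with the mean of its probe sets (adjusted p = 0.0239).

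Of 12 factors of mitochondrial DNA, 5 fell (41.7%, beside 12.4% of all genes) and 0 rose (beside 16.1%), with a median of -0.19. These were Tfb1m, a methylase of mitochondrial ribosomal RNA (-0.83 ± 0.12, SE), the helicase Twnk (-0.46 ± 0.07), the polymerase subunits Polg2 (-0.43 ± 0.09) and Polg (-0.24 ± 0.07), and the ETS factor Gabpa (-0.39 ± 0.09), with adjusted p of 0.0431 or less. Tfb1m was -0.46 with plain probe sets (adjusted p = 0.0160). The count that fell was 3 without wild-type replicate 2. Polg passed in 1 of the 6 fits that leave out an array, the one lacking caAkt replicate 2, and not with the mean of its probe sets (-0.11, adjusted p = 0.281). Gabpa lost its call when either wild-type replicate 2 or caAkt replicate 2 was dropped (adjusted p up to 0.0519). Tfb2m (0.032), Polrmt (-0.14) and Ssbp1 (-0.15) were not called, except Ssbp1 without wild-type replicate 3 (-0.26, adjusted p = 0.0496). Of 7 measured antioxidant targets of PGC-1, 2 fell (28.6%, beside 12.4% of all genes) and 1 rose (14.3%, beside 16.1%), shares that rest on very few genes. The mitochondrial peroxiredoxin Prdx3 fell by 0.54 ± 0.08 on the log2 scale (adjusted p = 0.00122), and Sod2, the mitochondrial superoxide dismutase, by 0.21 ± 0.07 (adjusted p = 0.0455), a call held only without wild-type replicate 3 when 1 array was left out. With the mean of its probe sets Sod2 was at -0.53 (adjusted p = 0.000327). Gpx1, a glutathione peroxidase of many cell types, rose by 0.92 ± 0.08 (adjusted p = 4.19e-05). Sod1 (-0.13), Cat (0.28) and Txn2 (-0.18) were not called. Txn2 was called in 4 other fits (adjusted p 0.0271 to 0.0458), and Cat without wild-type replicate 1 (0.40, adjusted p = 0.0293). The count that fell was 1 without any single array other than wild-type replicate 3, and 2 rose without wild-type replicate 1.

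**Figure D4:**
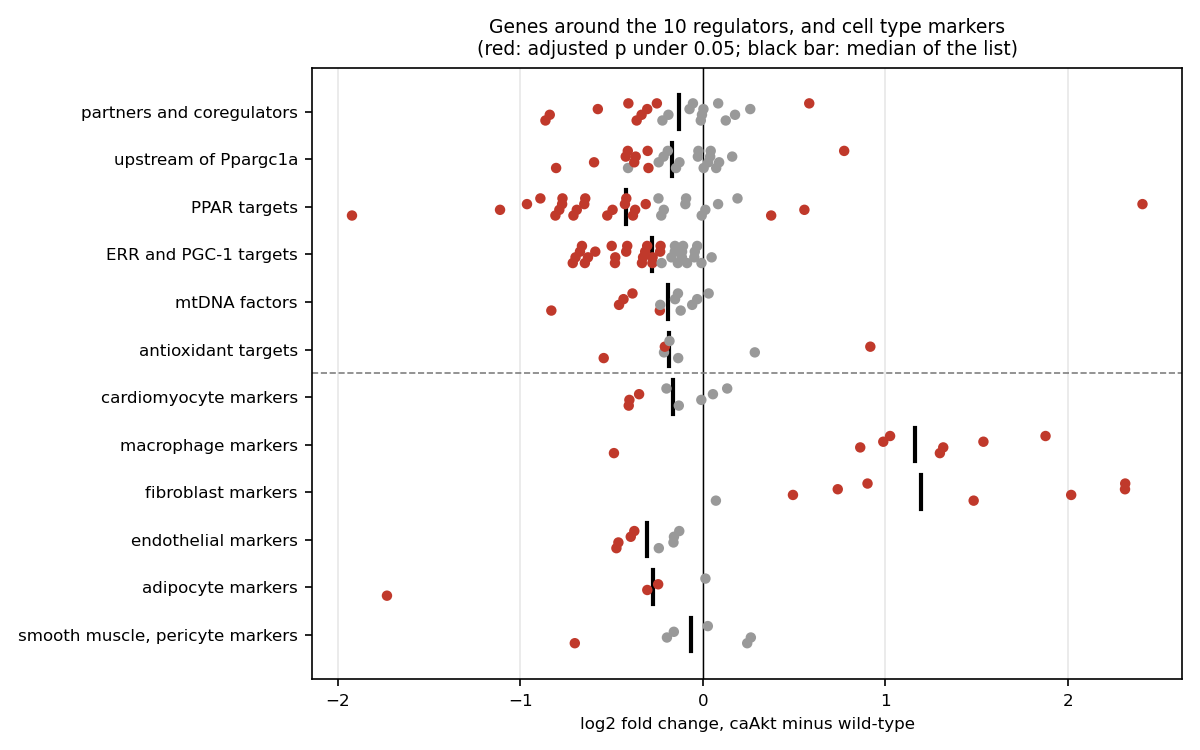
Log2 fold change of caAkt minus wild-type (horizontal axis) of each measured gene of the 6 lists above the dashed line and of the cell type marker lists under it. Each point is a gene, red at an adjusted p under 0.05, and black bars are list medians. The lists of PPAR targets and of ERR and PGC-1 targets lie mostly left of 0 (medians -0.42 and -0.28), and the macrophage and fibroblast markers mostly right of it (medians 1.16 and 1.19).

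Markers of cell types were read in the same contrast, in which 12.4% of all genes fell and 16.1% rose. Of 8 heart muscle markers 3 fell (Tnni3, Pln and Ryr2) and 0 rose, with a mean level of 14.57 to 14.64 on the caAkt arrays and 14.67 to 14.82 on the wild-type arrays, so close to the upper end of the values that falls can be understated. Of 8 fibroblast markers 7 rose, with a mean of 12.69 to 12.84 in caAkt and 11.31 to 11.56 in wild-type. Of 8 endothelial markers 4 fell and 0 rose (10.64 to 10.81 in caAkt, 10.97 to 11.03 in wild-type), and of 6 smooth muscle and pericyte markers 1 fell (16.7%, beside 12.4% of all genes) and 0 rose. The part of the cell mixture in the falls was not tested.

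Genes with the most similar profiles were sought as those with the smallest root mean square distance from the centred log2 values over the 6 arrays. For Ppargc1a these were Ung, a uracil DNA glycosylase (distance 0.16), Smco1 (0.17), Abcc9, a regulatory subunit of ATP-sensitive potassium channels (0.17), Yipf7 (0.18) and Shld1 (0.18), against a median distance of 0.91 over the other genes. For Ppara they were Mtr, the methionine synthase (0.081), 0610040J01Rik (0.089), the phosphatase Dusp10 (0.096), Btg2 (0.0997) and Ntn1 (0.102), against a median of 0.46. The likeness is a description over 6 arrays in 2 groups. Mtr, like Ppara, had its lowest wild-type value on wild-type replicate 2, at 9.62, against 10.16 and 10.14 on the others. Its log2 fold change was -0.77 as reported and -0.41 with the mean of its probe sets.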

How the data were processed

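Short-oligonucleotide arrays of 3 caAkt and 3 wild-type samples were analysed. The deposited log2 values were made by the authors with RMA (affy, per the submitters' processing notes), which corrects background, quantile-normalizes arrays and summarises each probe set. Their versions are not given in the sources used here. Quantile normalization hides any shift common to most genes, and the number of arrays limits the precision. Of 45101 probe sets, 34945 had 1 gene symbol in the platform annotation of 2016. Several-gene, unnamed and control probe sets were left out of the gene table.

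The caAkt and wild-type arrays were set against each other in limma 3.58.1 under R 4.3.3 (lmFit, eBayes, two-sided, caAkt minus wild-type, no covariates), with Benjamini-Hochberg adjustment over 18193 genes, or over all probe sets except controls where stated. Exact permutation tests used scipy 1.17.1. Named were all members, Akt1, per list the 5 largest calls, up to 4 called against the majority and the 3 uncalled with the highest signal, and the 5 nearest profiles of Ppargc1a and Ppara. Marker genes outside this rule were added after their values were seen. Members and lists were chosen with earlier results of these data known. The limma fit was tested on simulated data. Same-numbered arrays were not paired by the labels.

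Alternatives were other variance settings, probe set rules, a filter at the olfactory level, renewed scaling, array weights, a replicate block, a stricter threshold and leaving out each array.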

Additional observations from a re-analysis of the deposited data

How the results depend on the processing

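Ppargc1a and Ppara kept their direction and their call in the 14 other fits of genes, as did their 5 and 3 probe sets in the 7 other fits of probe sets. The count of the 10 genes that fell, 4 as reported, was 2 with median centring, with the replicate block and at an adjusted p under 0.01. That count was 2 to 3 without single arrays, 3 with the mean of probe sets, and 5 with renewed quantile normalization or array weights. With the mean of probe sets Esrra (-0.18, adjusted p = 0.0837) and Perm1 (-0.15, adjusted p = 0.113) lost their calls and Esrrg gained one. The count that rose, 0 as reported, was 1 (Pparg) with the mean of probe sets, with the filter on dim probe sets, with median centring and with array weights. Esrrg was called with the mean of probe sets, with renewed quantile normalization (-0.32) and with array weights (-0.30). Ppard turned to -0.12 with the mean of probe sets and to -0.049 with renewed quantile normalization, and spanned -0.058 to 0.14 without single arrays. Ppargc1b spanned -0.15 to 0.041, the Esrrb probe set 1422986_at -0.17 to 0.27, and the Esrrg minus Esrra difference of change -0.19 to 0.069 without single arrays, none of them called.

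At an adjusted p under 0.01, 3255 genes were called, against 5183 as reported, and the counts that fell became 4 partners, 4 upstream genes, 13 ERR and PGC-1 targets, 3 factors of mitochondrial DNA and 1 antioxidant target. Upstream genes that rose numbered 0 at that threshold and with renewed quantile normalization. Partners that rose numbered 2 with the mean of probe sets, plain probe sets or array weights. Antioxidant targets that fell numbered 4 with the mean of probe sets or array weights, and 1 with median centring or the replicate block. Without single arrays, partners that rose numbered 1 to 2, upstream genes that fell 5 to 6 and that rose 0 to 1, factors of mitochondrial DNA that fell 3 to 5, antioxidant targets that fell 1 to 2 and that rose 1 to 2. The cause of these shifts was not tested.

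The replicate number as a block ended the calls of Esrra (-0.23, adjusted p = 0.0729) and Perm1 (-0.22, adjusted p = 0.0567) and no other call among the 10 genes. The labels give no shared animal or day behind a number, and the deviations of same-numbered arrays from their group means correlated at 0.27, 0.031 and -0.12 over genes, so the numbers were not taken as pairs.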
